A study of Caenorhabditis elegans with 2 samples.

Results

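The ribosomal protein genes of Caenorhabditis elegans encode the protein components of the cytoplasmic ribosome. They were taken here as the nuclear protein-coding genes named rpl- or rps- in the WBcel235 annotation, together with rla-0, rla-1, rla-2, ubl-1, ubq-2 and rack-1. The rule gave 84 genes of 19973, of which 51 belong to the large subunit (rpl- genes, rla- genes and ubq-2) and 33 to the small subunit (rps- genes, ubl-1 and rack-1). Against RefSeq, 78 of the 84 have a product described as a ribosomal protein or subunit. The other 6 are rps-30, rps-10, ubl-1, ubq-2 and rpl-42, which RefSeq describes by other domains, and rpl-24.2, which it describes as a putative ribosome biogenesis protein.

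Promoter binding of ELT-3 was measured by chromatin immunoprecipitation followed by sequencing (ChIP-seq) in whole third-stage (L3) larvae of strain OP75, males and females pooled. The strain carries the unc-119(ed3) mutation on chromosome III and the integrated transgene wgIs75, through which the animals make ELT-3 fused to enhanced green fluorescent protein. There were 2 biological replicates of this single group, numbered as in the labels. Animals without the transgene are not among the samples, and the control experiment that the labels name was not used here, so no background independent of the deposited lists was measured. The sources used here give neither the sequences that drive the transgene nor the read depth, and the labels state the antibody target as elt-3 while they describe the experiment as directed at the tagged protein.

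The ribosome is built from ribosomal RNAs and many small basic proteins. The small subunit decodes the messenger RNA and the large subunit forms the peptide bond. Because each ribosome needs one copy of nearly every protein, these genes are transcribed at high and coordinated levels in growing animals. ELT-3 is a GATA factor best known from the larval epidermis, where it acts on cuticle and stress genes. GATA factors recognise the letters GATA with A or T before them and A or G after them, for example TGATAA.

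The deposited lists give, for each region, a summit (the base of highest signal), a signal value on a scale set by the authors, and a −log10 q-value. Rank 1 is the region with the highest signal in its list. The pooled list, made from both replicates, held 21761 regions, and each replicate list held 30000. These lists are relaxed and hold background regions by design. The 280 regions that passed the authors' irreproducible discovery rate (IDR) threshold were the same as the 280 strongest of the pooled list, whose signal was at least 46.8. A gene was given the strongest region with its summit in a window that began 1000 bp before its annotated 5′ end and stopped 200 bp past it. Coordinates are on ce11 (WBcel235) and are 1-based.

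The bases around the strongest summits show what lay under the signal. Each sequence below spans 101 bases centred on the pooled summit and reads 5′ to 3′ on the strand of the gene. Capitals mark the GATA motif and 5 further short motifs that are named after the values, on either strand. The first set holds the 8 genes with a region among the 280 strongest, from rank 5 to rank 230:
rpl-3: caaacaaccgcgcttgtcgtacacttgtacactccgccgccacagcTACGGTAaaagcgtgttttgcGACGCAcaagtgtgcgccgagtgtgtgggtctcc
rpl-20: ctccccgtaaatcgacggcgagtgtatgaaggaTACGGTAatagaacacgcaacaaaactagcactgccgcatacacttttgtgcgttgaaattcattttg
rpl-15: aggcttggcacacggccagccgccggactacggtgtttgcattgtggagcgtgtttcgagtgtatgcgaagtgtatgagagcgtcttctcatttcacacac
rps-12: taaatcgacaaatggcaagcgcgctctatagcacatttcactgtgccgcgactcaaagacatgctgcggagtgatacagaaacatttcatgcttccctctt
rpl-35: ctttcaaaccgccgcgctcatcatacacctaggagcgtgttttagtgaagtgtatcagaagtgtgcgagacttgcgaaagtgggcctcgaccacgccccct
rpl-12: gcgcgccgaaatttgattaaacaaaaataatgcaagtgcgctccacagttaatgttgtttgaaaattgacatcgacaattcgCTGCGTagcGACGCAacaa
rps-1: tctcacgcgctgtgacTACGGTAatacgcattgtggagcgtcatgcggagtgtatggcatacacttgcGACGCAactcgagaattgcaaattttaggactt
rpl-7A: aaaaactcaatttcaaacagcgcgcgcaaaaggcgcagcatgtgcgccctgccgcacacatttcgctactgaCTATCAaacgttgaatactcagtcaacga
The windows lie at chrIII:3867521-3867621, plus strand (rpl-3), chrIV:4750014-4750114, minus strand (rpl-20), chrIV:654874-654974, minus strand (rpl-15), chrIII:5679092-5679192, plus strand (rps-12), chrIII:7854639-7854739, plus strand (rpl-35), chrIV:13240659-13240759, minus strand (rpl-12), chrIII:4475619-4475719, plus strand (rps-1) and chrIV:4390623-4390723, minus strand (rpl-7A). Only rpl-7A held a GATA motif among these 8 windows, written there as CTATCA on the strand of the gene. No searched motif lay in the windows of rpl-15, rps-12 or rpl-35.

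The second set holds 3 genes of lower rank that are shown because they carry the same short element TACGGTA (or its reverse complement) as rpl-3, rpl-20 and rps-1:
rps-23: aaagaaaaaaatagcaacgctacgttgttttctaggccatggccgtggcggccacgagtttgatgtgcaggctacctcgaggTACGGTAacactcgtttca
rpl-11.2: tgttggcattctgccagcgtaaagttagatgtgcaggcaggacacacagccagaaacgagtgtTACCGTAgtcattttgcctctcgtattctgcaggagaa
ubl-1: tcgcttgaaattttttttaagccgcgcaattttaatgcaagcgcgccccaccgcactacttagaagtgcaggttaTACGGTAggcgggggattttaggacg
These lie at chrIV:12391294-12391394, minus strand (rps-23), chrX:2242929-2243029, minus strand (rpl-11.2) and chrIII:3068049-3068149, plus strand (ubl-1).

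Ribosomal protein genes were found beside strong regions more often than protein-coding genes at large. In the pooled list, 8 of the 84 had a region of the 280 strongest in their window, which is 9.52% (95% Wilson interval 4.91% to 17.7%), against 0.666% of all protein-coding genes. Of the 84, 17 had a region of the 1000 strongest (20.2%, interval 13.0% to 30.0%), against 1.98% of all genes. With any pooled region counted, 49 had one (58.3%, interval 47.7% to 68.3%), against 26.9% of all genes. The intervals cover counting error over genes only, and genes are not replicates, so no test was made. As the lists hold background regions, these are counts of listed regions and not of bound promoters. Among those with a region, the median rank was 1811 for the ribosomal protein genes and 9898 for all genes, and the median signal was 28.6 and 19.4. The medians of the libraries differed, with ranks of 2380 against 13011 in replicate 1 and 10683 against 14001 in replicate 2.

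**Figure D1:**
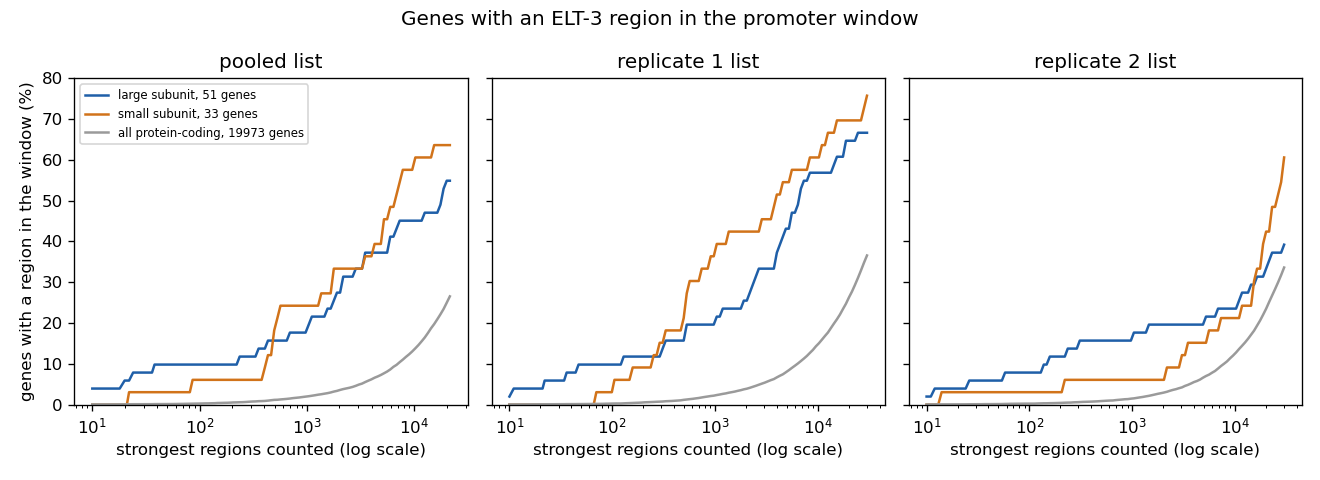
Share of genes (%) with a region in the promoter window against the number of strongest regions counted (log scale), in the pooled list and each replicate list, with lines for large-subunit genes, small-subunit genes and all protein-coding genes. At the 1000 strongest pooled regions the lines stand at 17.6%, 24.2% and 1.98%.

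Each replicate gave the same order. Replicate 1 had a region of its 280 strongest at 11 of the 84 genes, against 0.691% of all genes, and one of its 1000 strongest at 23, against 2.24%. Replicate 2 had one of its 280 strongest at 9, against 0.556%, and one of its 1000 strongest at 11, against 1.48%. Any region was found at 59 in replicate 1 and at 40 in replicate 2, where the shares of all genes were 36.6% and 33.6%. In both replicates together, 7 of the 84 were in the 280 strongest of each list (8.33%, against 0.290% of all genes) and the same number in the 1000 strongest of each (against 0.581%). A region in both lists was found at 36 (42.9%, against 16.2% of all genes). The regions of a gene in the lists need only lie in the same window. At rpl-7 the summits lay 167 and 939 bp upstream in replicates 1 and 2, and at rpl-38 919 and 206 bp.

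The large subunit supplied 6 of the 8 genes in the 280 strongest, and rpl-3 led. It encodes uL3, a protein that reaches towards the peptidyl transferase centre. Its region had the signal 125 in the pooled list (rank 5), 75.5 in replicate 1 (rank 11) and 48.4 in replicate 2 (rank 3), with the pooled summit 283 bp upstream of the 5′ end. The region of rpl-20, which encodes eL20, had the signal 118 (rank 8), 80.6 in replicate 1 (rank 7) and 38.5 in replicate 2 (rank 26), at 286 bp upstream. These were high in both libraries, and the order of the pair differed between them.

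Next came rpl-15, which encodes eL15, with a pooled signal of 94.5 (rank 19), 50.6 in replicate 1 (rank 45) and 44.7 in replicate 2 (rank 12), at 348 bp upstream. The gene rpl-35, which encodes uL29, a protein beside the exit of the peptide tunnel, had 90.5 (rank 24), 59.2 in replicate 1 (rank 22) and 33.5 in replicate 2 (rank 57), at 445 bp upstream. The gene rpl-12 encodes uL11, which sits at the base of the stalk where elongation factors dock. It had 84.3 (rank 38), 54.3 in replicate 1 (rank 35) and 27.3 in replicate 2 (rank 158), with a summit only 58 bp upstream. All 3 stayed among the 280 strongest regions of each replicate.

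The region of rpl-7A was less even. This gene encodes eL8, and its region had the pooled signal 49.0 (rank 230, just inside the 280 strongest), 37.9 in replicate 1 (rank 127) and 10 in replicate 2 (rank 20263), at 83 bp upstream. It was the one gene of the 8 that lay outside the 280 strongest of a replicate, and its place among the strong regions rests on replicate 1.

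In the small subunit, 2 genes reached the 280 strongest. The gene rps-12, which encodes eS12, had the signal 91.2 (rank 22), 45.1 in replicate 1 (rank 69) and 44.0 in replicate 2 (rank 14), at 156 bp upstream. The gene rps-1, which encodes eS1, a protein of the platform next to the exit of the messenger RNA, had 68.6 (rank 82), 41.0 in replicate 1 (rank 101) and 25.9 in replicate 2 (rank 221), at 249 bp upstream. Both were among the 280 strongest of each replicate. The deposited −log10 q-value adds no order among these 8, since 7 of the 8 genes share the pooled value 2.45 and rpl-7A had 1.96. Further down it was lower, at 1.41 for rpl-32, 1.18 for rps-23 and 0.758 for rpl-1. It was 0.276 for rpl-29, at the median rank of 1811, and 0.0199 for rpl-5. A low value means that the region may be background.

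**Figure D2:**
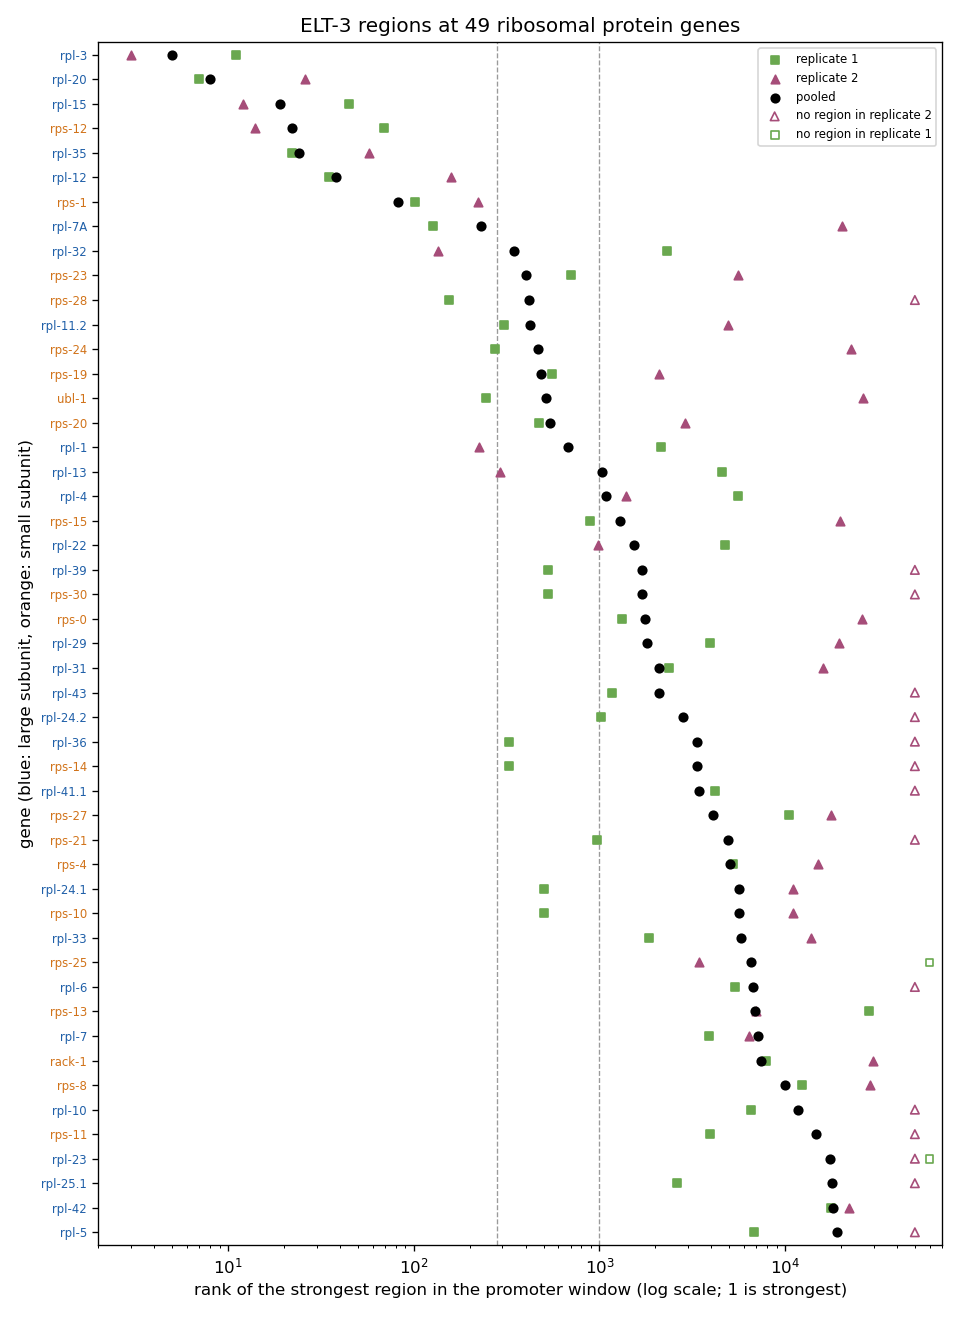
Rank (log scale, 1 is strongest) of the strongest region in the promoter window of each ribosomal protein gene in the pooled list, replicate 1 and replicate 2. The genes at the strong end, from rpl-3 to rps-1, hold low ranks in all 3 lists, whereas rpl-7A lies at rank 127 in replicate 1 and rank 20263 in replicate 2.

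Outside the 280 strongest, the next 3 genes were rpl-32 (rank 345, signal 44.3), rps-23 (rank 401, signal 42.2) and rps-28 (rank 418, signal 41.9). Their replicates differed widely. The gene rpl-32 had rank 2323 in replicate 1 (signal 15.5) and rank 135 in replicate 2 (signal 28.1), whereas rps-28, for eS28, had rank 155 in replicate 1 (signal 35.5) and no region in replicate 2. The gene rps-23 encodes uS12, which lines the decoding centre, and had rank 705 (signal 21.8) in replicate 1 and rank 5580 (signal 14.5) in replicate 2.

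The other 6 genes of the 1000 strongest were 2 of the large and 4 of the small subunit. The gene rpl-11.2 encodes uL5, a partner of the 5S ribosomal RNA, and had pooled rank 422 (signal 41.8), rank 305 in replicate 1 (signal 28.4) and rank 4896 in replicate 2 (signal 14.9). The gene rpl-1 encodes uL1 of the mobile stalk beside the exit site of transfer RNA, and had rank 673 (signal 36.4), rank 2155 in replicate 1 (signal 15.7) and rank 225 in replicate 2 (signal 25.8). Leading the 4 of the small subunit, rps-24 (eS24) had rank 466 (signal 40.8), rank 272 in replicate 1 (signal 29.5) and rank 22571 in replicate 2 (signal 9.63).

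For rps-19, which encodes eS19, the pooled rank was 487 (signal 40.3), with rank 552 (signal 23.5) in replicate 1 and rank 2090 (signal 17.7) in replicate 2. The gene ubl-1 encodes a ubiquitin-like protein joined to a small-subunit protein (RefSeq symbol rps-27A) and had rank 514 (signal 39.4), rank 245 in replicate 1 (signal 30.4) and rank 26304 in replicate 2 (signal 9.01). For rps-20, which encodes uS10, the values were rank 543 (signal 39.0), rank 475 in replicate 1 (signal 24.5) and rank 2898 in replicate 2 (signal 16.6). All 4 small-subunit genes were stronger by rank in replicate 1.

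Just beyond the 1000 strongest lay rpl-13 (eL13; rank 1038, signal 32.7), rpl-4 (uL4, a wall of the peptide tunnel; rank 1082, signal 32.4) and rps-15 (uS19; rank 1295, signal 31.0). The signal at rank 1000 was 32.9, so the first of these differed from it by little. In replicate 1 they had ranks 4544, 5545 and 887, and in replicate 2 ranks 292, 1394 and 19680. The replicate 1 region of rpl-13 lay 518 bp from its pooled summit and is a different region. The remaining genes with a pooled region reached down to rpl-5 at rank 19123 with a signal of 15.8, close to the 15.1 of the weakest pooled region. Of the proteins that stand apart from the core, rack-1, which encodes a WD-repeat scaffold on the small subunit, had rank 7399. The stalk gene rla-0 and ubq-2, which encodes a ubiquitin fusion of the large subunit, had regions in replicate 1 only, at ranks 14875 and 17526.

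The replicates differed in how they treated the subunits. In the pooled list, the 1000 strongest regions held 9 of the 51 large-subunit genes (17.6%, Wilson interval 9.57% to 30.3%) and 8 of the 33 small-subunit genes (24.2%, interval 12.8% to 41.0%), and the intervals overlap. The 280 strongest held 6 and 2, and any region 28 (54.9%) and 21 (63.6%). In replicate 1 the 1000 strongest held 10 large-subunit genes (19.6%, interval 11% to 32.5%) and 13 small-subunit genes (39.4%, interval 24.7% to 56.3%). Some of these are the same region counted once in each subunit. Such pairs are rpl-36 and rps-14 (rank 325), rpl-24.1 and rps-10 (rank 500), and rpl-39 and rps-30 (rank 527). In replicate 2 the order turned, with 9 (17.6%, interval 9.57% to 30.3%) and 2 (6.06%, interval 1.68% to 19.6%). At this limit the libraries thus gave opposite orders. With any region counted, the small subunit had the higher share in both, with 75.8% against 66.7% in replicate 1 and 60.6% against 39.2% in replicate 2, and 51.5% against 37.3% for a region in both. When a summit counted only for the nearest 5′ end, the pooled shares in the 1000 strongest were 15.7% for the large and 12.1% for the small subunit, so the pooled order also turned with that choice. The difference between the subunits was not tested.

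The same imbalance was seen gene by gene. Of the 36 genes with a region in both replicates, 27 had the better rank in replicate 1, among them 15 of 17 of the small and 12 of 19 of the large subunit. Over all protein-coding genes with a region in both, 1712 had the better rank in replicate 1 and 1520 in replicate 2. Over every gene with a region in the list, the median rank of the small-subunit genes was 972 in replicate 1 (25 genes) and 15442 in replicate 2 (20 genes). That of the large-subunit genes was 3251 (34 genes) and 3145 (20 genes). These medians thus cover different genes in each list. Across the 36 genes, the Spearman correlation of the signal between replicates was 0.493, against 0.246 across 3232 protein-coding genes. The genes in each correlation share the same pair of libraries, and the values are descriptions. At some genes, such as rpl-7 and rpl-38, the regions compared lay at different places in the window.

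**Figure D3:**
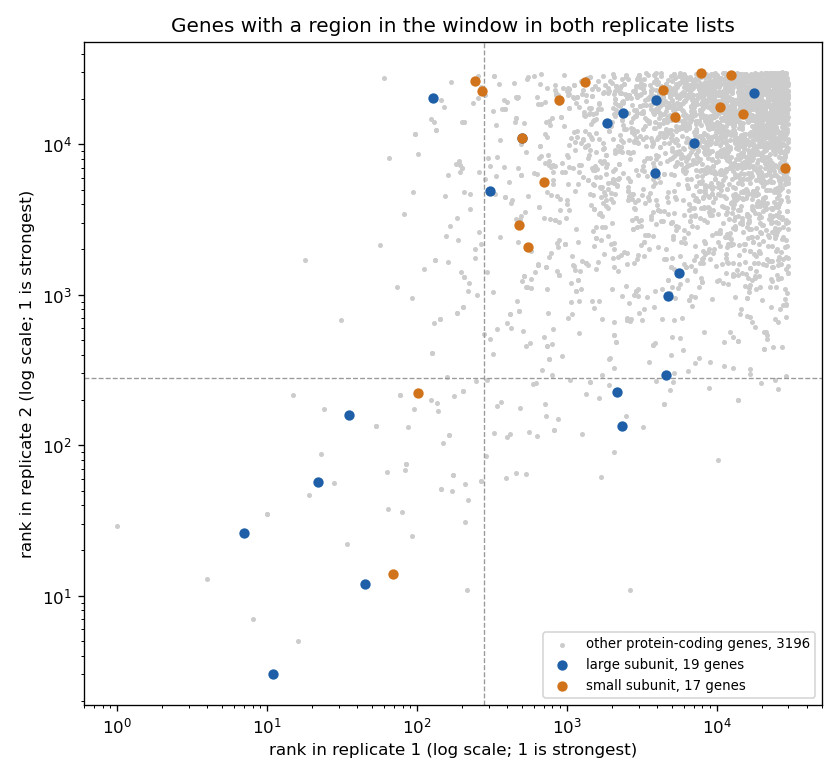
Rank in replicate 2 against rank in replicate 1 (both log scales, 1 is strongest) for the genes with a region in both replicate lists, with the 36 ribosomal protein genes marked by subunit over all such genes. Dashed lines mark rank 280. Of the 7 ribosomal protein genes strong in both, 5 are of the large subunit and 2 of the small subunit.

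The strong pooled regions mostly had a region at the same place in each replicate. Because the pooled list was made from both replicates, such nearness is in part built in. Distances between the summits of the replicates were not summarised over the genes, and distances for other genes were not measured. All 17 genes of the 1000 strongest pooled regions had a region in replicate 1, each with its summit within 100 bp of the pooled summit (median distance 5 bp, largest 76 bp). In replicate 2, 16 of them had one, 14 of these within 100 bp (median 3.50 bp, largest 256 bp), the others being rpl-11.2 and ubl-1, whose replicate 2 values above therefore belong to another summit in the same window. Over all 49 genes with a pooled region, 47 had one in replicate 1 (43 within 100 bp) and 34 in replicate 2 (26 within 100 bp), and the distance reached 738 bp in replicate 2, at rpl-7. Even so, 8 of the 17 lay outside the 1000 strongest of replicate 2, or had no region there, whereas 2, rpl-32 and rpl-1, lay outside those of replicate 1.

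In the pooled list and in replicate 1, most summits sat in a band upstream of the genes. For the 49 genes with a pooled region, the median summit lay 303 bp upstream of the 5′ end (quartiles 243 and 427 bp, range 24 to 932 bp). None lay downstream of it. Between 150 and 500 bp upstream lay 36 of the 49 (73.5%), against 1792 of the 5315 other genes with a pooled region (33.7%), whose median was 344 bp with quartiles of 100 and 643 bp. The limits of this band have no source independent of these summits, so the contrast is a description only. The share in this band was 76.3% in replicate 1 and 55.0% in replicate 2, against 32.9% and 32.8% of other genes. In replicate 2 the spread was wider, with quartiles of 223 and 607 bp upstream and a range of −190 (downstream) to 976 bp. The annotated 5′ end lies close to the start codon in these genes (median 8.50 bp, within 100 bp in 81 of 84), as it does in most genes (median 15.0 bp). Many worm messages are trimmed at their 5′ end by trans-splicing, so the true start of transcription may lie further upstream than the annotation.

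**Figure D4:**
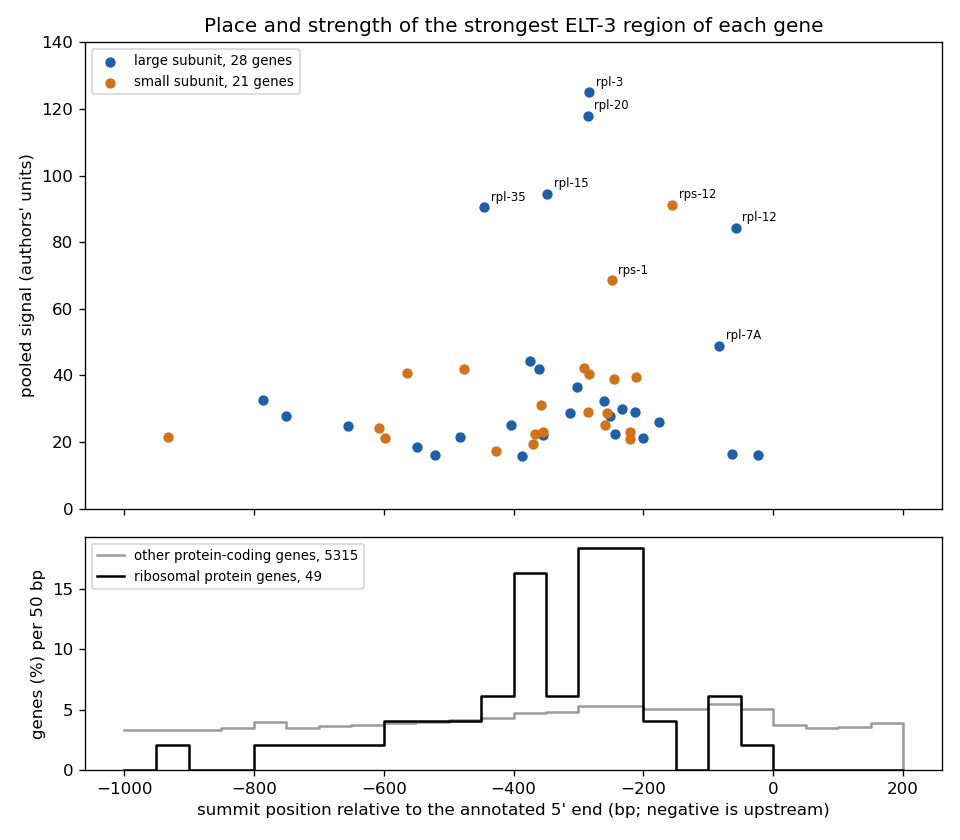
Position of the strongest pooled summit relative to the annotated 5′ end (bp, negative is upstream) against its signal in the authors' units for the 49 ribosomal protein genes, coloured by subunit (upper panel), and as the share of genes per 50 bp beside other protein-coding genes (lower panel). The ribosomal protein genes gather between 150 and 500 bp upstream (73.5%), whereas other genes are spread over the whole window (33.7% in that band). The limits of the band have no source independent of these summits.

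Most of these summits lay between genes. The 49 genes correspond to 46 distinct summits, since rpl-39 and rps-30, rpl-36 and rps-14, and rpl-24.1 and rps-10 share one each. Of the 46, 42 (91.3%) lay outside every protein-coding gene, 2 in introns (of tppp-1 for rpl-13 and of C03D6.1 for rpl-24.2), 1 in a coding exon of nfx-1 (rps-13) and 1 in the 5′ untranslated region of ints-11 (rpl-10). Among the regions of other genes, 63.5% lay between genes and 15.2% in coding exons. All 17 summits of the 1000 strongest lay between genes, against 75.6% for other genes.

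Because the worm genome is compact, a summit may belong to a neighbour. Of the 84 genes, 49 (58.3%) were placed as divergent, against 17.5% of all protein-coding genes. Such a gene has a divergent neighbour whose 5′ end lies within 1000 bp. It also has no gene on its own strand that ends within 500 bp upstream. A summit that also lay in the window of another gene was found at 31 of the 49 genes with a pooled region, 11 of the 17 in the 1000 strongest. The same share over all genes was not counted. Among the 8 strongest, rpl-3 and rpl-35 shared theirs with none. The summit of rpl-20 lay 176 bp upstream of Y17G9B.5, that of rpl-15 466 bp upstream of K11H12.8, and that of rps-12 137 bp upstream of ska-3. The summit of rpl-12 lay 335 bp upstream of lin-54, that of rps-1 519 bp upstream of ifet-1, and that of rpl-7A 171 bp upstream of set-21. For rpl-20 and rps-12 the neighbour was nearer than the ribosomal protein gene. When each summit was given only to the nearest 5′ end, the count of genes with a region in both replicates fell from 36 to 18. The share of all genes in both lists under that rule was not computed. In the pooled list the same rule left 33 of the 84 with any region, where all genes had 23.0%. It left 12 in the 1000 strongest (all genes 1.63%) and 6 in the 280 strongest (all genes 0.526%). Of the 49 genes placed as divergent, 29 (59.2%) had a pooled region and 10 (20.4%) one of the 1000 strongest, against 27.4% and 3.09% of all genes in that position. Of the 26 with neither a divergent nor a close upstream gene, 19 (73.1%) had a pooled region and 7 (26.9%) one of the 1000 strongest, against 26.8% and 1.82% of all such genes.

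Some genes lie close behind another gene on the same strand, a place typical of downstream genes in worm operons. There were 9 within 500 bp of the gene before them, namely rpl-25.1, rla-1, rpl-16, rpl-19, rpl-27, rps-16, rps-17, rps-2 and rps-7. The gene rps-16 follows fib-1, which encodes the nucleolar protein fibrillarin, at 110 bp. Of the 9, rpl-25.1 had a pooled region (rank 17978), against 26.5% of all genes in that position, and none was among the 1000 strongest. A region in at least 1 list was found at 5, at rpl-25.1, rpl-19 and rps-17 in replicate 1 and at rps-16 and rps-7 in replicate 2. Over all protein-coding genes, 45.2% had no region in any list, so 5 of 9 is near the share of all genes. At this number of genes a share cannot be measured closely.

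By chromosome, all 8 genes of the 280 strongest pooled regions lay on III (4 of its 20 ribosomal protein genes, against 0.985% of all genes there) and IV (4 of 19, against 0.549%). Chromosome I holds the most, 25, of which none was in the 280 strongest and 3 in the 1000 strongest, where all its genes had 0.869% and 3.37%. In the 1000 strongest were also 1 of the 10 on II (all genes 1.39%), none of the 8 on V (1.34%) and 1 of the 2 on X (2.49%). Replicate 1 gave the same picture, with all 11 genes of its 280 strongest on III (5) and IV (6). Among its 1000 strongest it also had 2 genes on V, rpl-39 and rps-30, which share a single region. Replicate 2 was less uneven, with 1 gene on I and 1 on II among its 280 strongest. These counts are small, and the difference between chromosomes was not tested.

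Genes that share a number in their names, some of them copies of one gene, were compared pair by pair. Of the pair for uL5, rpl-11.2 had rank 422 and rpl-11.1 had no region in any list. Of the pair rpl-7A and rpl-7, which encode different proteins, the first had rank 230 and the second rank 7168. The genes rpl-24.1 and rpl-24.2 had pooled ranks 5616 and 2835, with close signals of 22.4 and 26.1, and the order turned in replicate 1 (ranks 500 and 1021). The gene rpl-41.1 had rank 3431 and rpl-41.2 had no region, and rpl-25.1 had rank 17978, with a signal of 16.2 near the lowest of the list, while rpl-25.2 had none. The gene rpl-36 had rank 3367, and rpl-36.A, which encodes a different protein, had only a weak region in replicate 2 (rank 28922).

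At the other end, 20 of the 84 genes had no region in their window in any of the 3 lists, a smaller share than the 45.2% of all protein-coding genes. They were 15 of the large subunit, rla-1, rla-2, rpl-2, rpl-9, rpl-11.1, rpl-14, rpl-16, rpl-18, rpl-21, rpl-25.2, rpl-27, rpl-30, rpl-34, rpl-37 and rpl-41.2, and 5 of the small subunit, rps-2, rps-3, rps-5, rps-6 and rps-29. The list includes both acidic proteins of the stalk (rla-1 and rla-2) and rps-6, whose mammalian protein is the classic target of S6 kinase. Their nearest pooled summit lay 512 to 13046 bp away (median 1975 bp). A further 15 had no pooled region and one in at least 1 replicate list (28.0% of all genes), and 33 had a region in all 3 lists (13.0% of all genes). With the depth unknown, no region means that none was listed, not that no protein was bound.

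The GATA motif was about as frequent at these summits as in the pooled regions at large. It lay within 50 bp of 9 of the 46 summits (19.6%, Wilson interval 10.7% to 33.2%), against 15.2% in equal windows moved 500 bp to the right. Right is meant along the chromosome, whatever the strand of the gene. Such a window can therefore fall inside a plus-strand gene or further upstream of a minus-strand gene. Among all pooled regions the share was 23.9%, in the 1000 strongest 35.9% and in the 280 strongest 44.3%. The share thus rose with strength over the whole list, but among the 17 strong ribosomal protein regions it was 2 (11.8%, interval 3.29% to 34.3%), in rpl-7A and rpl-1, against 104 of 312 (33.3%, interval 28.3% to 38.7%) in regions of other genes from the same 1000. These intervals overlap. Among the 29 weaker regions it was 7 (24.1%), against 23.8% for other genes. In stretches of the same length centred 300 bp upstream of every gene it was 21.5%, and 13.1% for the ribosomal protein genes. In the whole 600 bp upstream, 79.8% of the ribosomal protein genes and 76.9% of all genes held a GATA motif, so the letters were present in most of these promoters.

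Of the other motifs, which earlier results of these data had listed, ACGCAG and the word GACGCA (which overlap when written GACGCAG) each lay in 7 of the 46 windows (15.2%), against 3.14% and 3.41% of the windows of other genes. In the 1000 strongest they lay in 3 (17.6%) and 4 (23.5%) of the 17, against 8.97% and 11.5% for other genes. In stretches 300 bp upstream of all genes their shares were 2.46% and 2.56%. GAGAGA lay in 3 of the 46 (6.52%, against 7.71% for other genes) and in none of the 17 strong ones (interval up to 18.4%), against 18.9% for other genes in the 1000 strongest and 6.11% of all promoter stretches. CACGTG lay in none of the 46 (interval up to 7.71%), against 1.91% for other genes and 1.56% of promoter stretches.

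The element TACGGTA was picked after 14 of the windows had been read, all of them among the 17 of the 1000 strongest, so its share there restates the windows that prompted it. It lay in 10 of the 46 windows (21.7%, interval 12.3% to 35.6%) and in none of their windows 500 bp to the right, against 1.59% of the 4720 windows of other genes. In the 1000 strongest it lay in 7 of 17 (41.2%; 6 of the 14 read and 1 of the 3 not read), against 7 of 312 (2.24%) for other genes. Of the 32 windows that had not been read, 4 held it (12.5%, interval 4.97% to 28.1%). The holders were rpl-3, rpl-20, rps-1, rps-23, rpl-11.2, ubl-1, rps-20, rpl-43, rpl-33 and the summit shared by rpl-24.1 and rps-10. Read on the gene's strand, its centre was at most 31 bp before the summit (rps-1) and at most 35 bp after it (rps-23), and 1 bp before it in rpl-3. In promoter stretches 300 bp upstream it lay at 1.54% of all genes and 8.33% of ribosomal protein genes. Within 600 bp upstream, 14 of the 49 genes with a pooled region held it (28.6%) and 5 of the 35 without (14.3%), against 8.45% of all genes. The shares of the 46 windows, of the ribosomal protein promoter stretches and of the 49 genes include the genes whose windows had been read. They are therefore not independent of the choice of the element. No factor is assigned to these letters here.

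**Figure D5:**
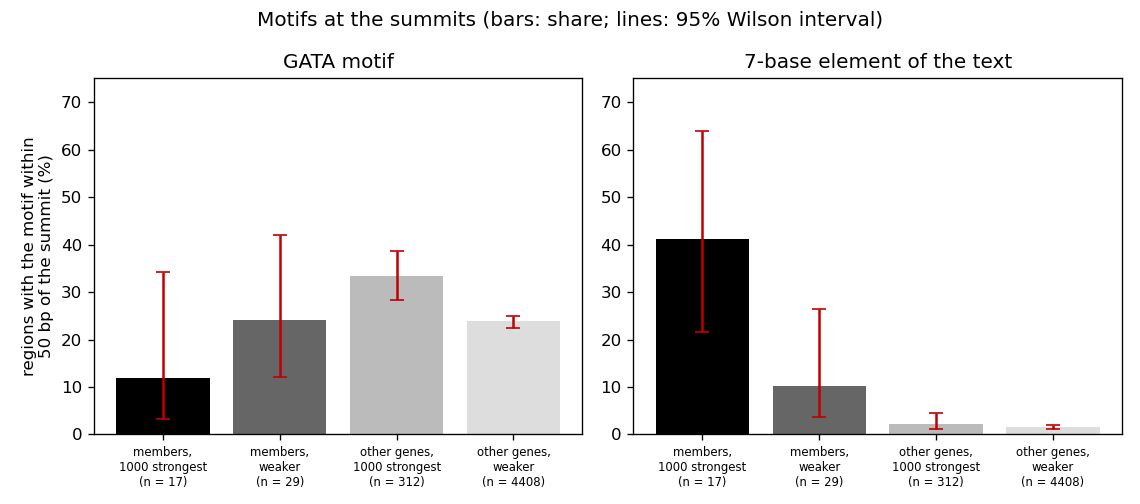
Share of regions (%) with the GATA motif (left) and with the element TACGGTA (right) within 50 bp of the summit, for ribosomal protein genes and other genes, split at the 1000 strongest pooled regions, with 95% Wilson intervals. The GATA motif is at 11.8% in strong ribosomal protein regions and 33.3% in those of other genes, and the element at 41.2% and 2.24%. The element was picked from 14 of these 17 strong windows, so its bar there is no independent value.

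Base composition differed as well. The median GC content of the 101-base windows was 44.6% for the ribosomal protein genes and 33.7% for all pooled regions. Among the 1000 strongest it was 48.5% for the ribosomal protein genes (40.6% in their windows 500 bp to the right) and 40.6% for other genes (34.7% to the right). Over the whole pooled list, GC content and the share with a GATA motif were both higher in the 280 strongest regions (41.6% and 44.3%) than in all regions (33.7% and 23.9%). The part of composition in the ranks and in the motif shares was not tested.

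Other gene lists of protein synthesis and turnover had smaller shares in the 1000 strongest pooled regions than the 20.2% of the ribosomal protein genes, where all genes had 1.98%. Of 70 mitochondrial ribosomal protein genes, which serve the separate ribosome of that organelle, none was in the 1000 strongest (interval up to 5.20%), although 4 (5.71%) were in those of replicate 1, and 22 had any pooled region (31.4%, against 26.9% of all genes). Of 42 translation factor genes, 1 was in the 280 and 3 in the 1000 strongest (7.14%, interval 2.46% to 19.0%), both above all genes, and 16 had any region (38.1%). Of 31 aminoacyl-tRNA synthetase genes, 1 was in the 1000 strongest and 7 had any region (22.6%). Of 33 proteasome subunit genes, none was in the 1000 strongest and 15 had any region (45.5%, interval 29.8% to 62.0%, which overlaps that of the ribosomal protein genes). Their median pooled ranks were 10506, 8544, 10061 and 8131, against 1811 for the ribosomal protein genes. In replicate 2 the contrast in median rank was smaller and mixed, with medians of 13414, 10790, 9954 and 14540 against 10683. The aminoacyl-tRNA synthetase genes (9 with a region) had a better median there than the ribosomal protein genes. The contrast in the share of the 1000 strongest was seen in replicate 2. The ribosomal protein genes had 13.1%, the other lists 0, 4.76%, 3.23% and 3.03% in the same order, and all genes 1.48%. The difference between the lists was not tested.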

How the data were processed

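ChIP-seq of tagged ELT-3 in L3 larvae gave 2 replicate lists, a pooled list and an IDR list on ce11. Each region carries a signal value and a −log10 q-value as deposited by the authors, per the file headers and README text, derived from alignments and a control. The sources used here give no aligner, peak caller, IDR threshold, signal scale or depth, so precision cannot be stated from reads. Lists on ce10 were not used.

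Regions were ranked by signal and placed by summit with Python 3.11.15, pandas 2.3.3, numpy 2.4.6 and scipy 1.17.1 (Wilson intervals at 95%), on WBcel235 with Ensembl release 115 gene models. RefSeq gave products by WormBase identifier for all 84 genes, and 21 have another symbol there. Promoter windows ran from 1000 bp upstream to 200 bp downstream, and a summit counted for every gene whose window held it. Motifs were searched on both strands. Placement was tested on simulated data.

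Members, motifs and lists were chosen with earlier results of these data known. Genes in the 280 strongest pooled regions were given in full. Those in the 1000 strongest or in the 280 strongest of a replicate, the next 3 outside each limit, and gene pairs sharing a number were given by value, and those in no list by name. The alternatives were each replicate alone, other windows, the start codon as 5′ end, nearest gene only, region overlap in place of the summit, other rank limits and a wider motif window. With 1 group there was no comparison between conditions and no p-value, and the 2 replicates show spread between libraries only.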

Additional observations from a re-analysis of the deposited data

How the results depend on the processing

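Of 66 values under an alternative, 54 stayed within 1.5 times the reported count or within 1 standard deviation of the 2 replicates. That deviation rests on 2 values and is wide, so 4 of the 54 differ by over 1.5 times. These are the small-subunit share in the 1000 strongest (24.2%), which was 6.06% to 39.4% with each replicate alone and 12.1% with nearest genes only, and the median rank, which was 3367 with nearest genes only. Taking each replicate alone gave 11 to 23 ribosomal protein genes in the 1000 strongest regions (pooled 17), a median rank of 2380 to 10683 (pooled 1811), a median summit distance of 305 to 348 bp (pooled 303 bp), and 17.6% to 19.6% of large-subunit genes in the 1000 strongest (pooled 17.6%). The low count and the weak median rank are those of replicate 2 alone. The cause was not tested.

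A window to 2000 bp upstream gave a median distance of 361 bp, which follows from the longer window. The share of summits with a GATA motif (19.6%) was 23.1% in the window of 500 bp upstream to 100 bp downstream, 24.1% in that to 2000 bp, 27.3% with nearest genes only, and 26.1% when 100 bp to each side were searched, which is a longer stretch. The share of large-subunit genes was 15.7% with nearest genes only and also 15.7% for the 500 strongest. Regions in both replicates numbered 18 with nearest genes only, as summits shared with a closer neighbour were then lost. No paired analysis was possible because there is 1 group. Read depth is unknown and limits what an absent region shows.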
